A study of Rattus norvegicus with 12 samples.

Results

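Bcl11b and Hmga2 are 2 regulators of gene expression that are best known from development, and 8 peaks at their loci are among the 4014 differentially methylated m6A peaks in the list that compares injured with uninjured rat sciatic nerve. Bcl11b had 5 of these peaks and Hmga2 had 3. The members are all minus-strand peaks within 50 kb of 1 stretch on chromosome 6 (Bcl11b, 141007141 to 141083485) and of 1 peak on chromosome 7 (Hmga2, 65477106 to 65477157). Both genes were chosen by measured values of this same comparison, because the study lists a peak of each among those with the largest increase in methylation after injury, and Hmga2 also because a peak near it has the highest score of all. Their scores are therefore given below as a description and were not tested.

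Bcl11b, also called Ctip2, is a zinc finger transcription factor that is needed for the commitment of T cells and for the differentiation of some cortical and striatal neurons. Hmga2 is a small chromatin protein that binds AT-rich DNA through short AT hooks, is abundant in embryonic tissue and is silent or low in most adult tissue. The AT hooks are encoded by separate short exons near the 5′ end of the gene, and a long intron separates these exons from the 3′ part of the transcript. The m6A mark is written on adenosines of mRNA by the METTL3 and METTL14 complex, is removed by FTO and ALKBH5, and is read by proteins that change the stability or translation of the transcript.

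The animals were female Wistar rats of 100 to 120 g, about 4 weeks old. The control group was uninjured, and the SNI group was sampled 7 days after sciatic nerve injury, about 1 cm of nerve around the centre of the lesion being taken. Each group had 3 samples. Each sample gave an m6A immunoprecipitation (IP) library and an input library made without the antibody, which makes 12 libraries. In the study's quality control, the raw read counts of the control inputs reappear under the SNI samples of its RNA-seq, and the reverse. Which group label is right for the input libraries was not determined. The authors' deposited list holds 1 row for each peak that passed their thresholds over all replicates together. A row gives the chromosome, start, end, strand and a score, which is −log10 of the p-value of the difference between SNI and control. The list has no value for any single library, so that no replicate error, level or depth can be given for a peak, and it has no direction, fold change or gene name. Whole pieces of nerve were sampled, so more methylation per transcript, more transcript per cell and more cells of a type that makes the transcript cannot be told apart. Since the list has no expression level for any library, the tissue label could not be checked against marker genes.

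Positions are in the rn5 build as the list prints them, and lengths are the difference of end and start. Gaps are the difference between the facing ends of neighbouring peaks. If both ends were counted as part of a peak, lengths would be a base longer and gaps a base shorter. Both genes lie on the minus strand, so the peak with the highest coordinate is the most 5′. A table of exons for rn5 was not used here. Positions are therefore given relative to the other peaks, and the exon of each peak was not determined. The study's own table places the Bcl11b peak that ends its locus, and the Hmga2 peak that defines its locus, in the coding sequence. The rows of its supplement used here assign that Bcl11b peak and the 3′ cluster described below to Bcl11b, each marked as increased after SNI. The most 5′ peak of Bcl11b and the other peaks of Hmga2 are assigned here by strand and position alone, and no direction is given for them.

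The peaks of Bcl11b fell into a 5′ pair and a 3′ cluster. The most 5′ peak ran from 141097017 to 141097519 (502 bases) and had a score of 8.22, rank 1325 of the list. The next began 13.5 kb further 3′, from 141083119 to 141083485 (366 bases), and had the highest score of the gene at 8.47, rank 1196. Both stood above the median score of the list, which was 7.46, and neither reached its upper quartile of 8.93.

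The 3′ cluster lay 74.2 kb beyond the pair and held 3 peaks within 1739 bases. From 5′ to 3′, the first of them ran from 141008501 to 141008880 (379 bases) with a score of 5.44. The second followed after 61 bases, from 141007741 to 141008440 (699 bases), with a score of 7.36. The third followed after another 181 bases, from 141007141 to 141007560 (419 bases), with a score of 6.99. All 3 scored below the median of the list, and the first ranked 3722, near the lower end. Peaks covered 86.1% of the cluster, which held 63.3% of the summed peak length of the gene, 1497 of 2365 bases. The longest peak of Bcl11b therefore belonged to the part of the transcript with the lower scores.

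The 3 peaks of Hmga2 all scored high. The most 5′ peak ran from 65490109 to 65490580 (471 bases) and had a score of 12.7, rank 23. The second lay 2653 bases further 3′, from 65487369 to 65487456, and was only 87 bases long. Its score of 13.6 was the highest of the whole list and lay 0.0307 above that of the next peak, a gap far smaller than the range within Hmga2 itself. The third, the peak that defines the locus, lay another 10.2 kb further 3′, from 65477106 to 65477157 (51 bases), and had a score of 10.7, rank 416. The score thus did not fall or rise steadily along the transcript, and the middle peak was the highest.

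**Figure D1:**
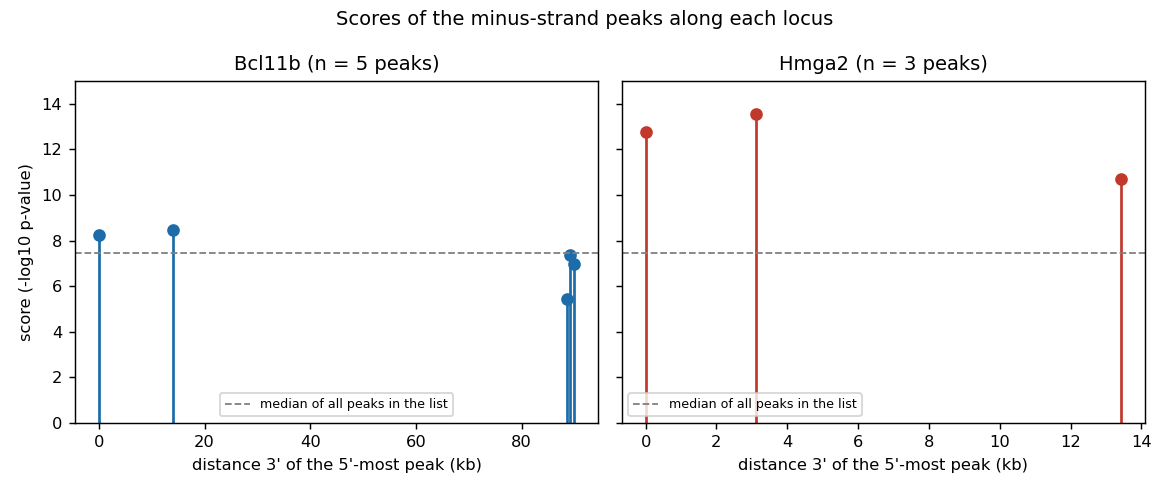
Score (−log10 p-value) of each minus-strand peak against its distance in kb from the 5′ end of the most 5′ peak, for Bcl11b (5 peaks) and Hmga2 (3 peaks), with the median score of all 4014 peaks as a dashed line. The 3 Hmga2 peaks stand between 10.7 and 13.6, while the Bcl11b peaks lie on both sides of the line, the 3 of the 3′ cluster below it.

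The scores of the 2 genes did not overlap, since the lowest of Hmga2 (10.7) was 2.24 above the highest of Bcl11b (8.47). A score of at least 8 was found for 37.1% of all peaks in the list, for 2 of the 5 Bcl11b peaks and for 3 of the 3 Hmga2 peaks. A score of at least 10 was found for 15.5% of all peaks, for none of the Bcl11b peaks (0 of 5) and for 3 of the 3 Hmga2 peaks. Since the genes were selected from this contrast, nothing is read from these shares. A higher score says that the p-value was smaller, and not that the methylation changed more, because the p-value also depends on how many reads covered the peak. The study names Fisher's exact test for its differential peaks. With no value per library in the list, a score does not show how alike the samples of a group were.

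The genes differed in peak length as well. Every peak of Bcl11b was longer than the upper quartile of the list, which was 290 bases, and the shortest of them, 366 bases, was longer than 80.6% of all peaks. The median length was 419 bases for Bcl11b and 87 bases for Hmga2, against 152 bases for the list. In Hmga2 the most 5′ peak was longer than 87.2% of all peaks, whereas the second and the third were longer than only 20.5% and 9.14%. The highest score of the list thus belonged to a peak shorter than the lower quartile of 96 bases. Of the 622 peaks with a score of at least 10, 141 (22.7%) were shorter than 100 bases, against 1071 (26.7%) of all peaks.

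**Figure D2:**
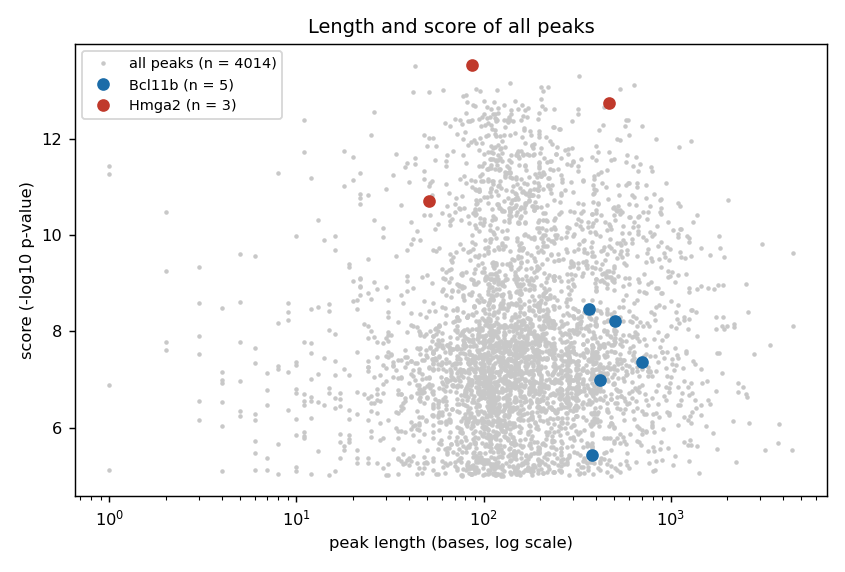
Length in bases (log scale) against score (−log10 p-value) for all 4014 peaks (grey), the 5 Bcl11b peaks (blue) and the 3 Hmga2 peaks (red). The Bcl11b peaks share a narrow range of lengths, from 366 to 699 bases, over scores from 5.44 to 8.47, while the Hmga2 peaks spread from 51 to 471 bases at scores from 10.7 to 13.6.

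The ends of the peaks also differed along each gene, a trait that the choice of the members did not use but that goes with length. Many ends in the list sit on a regular 20-base grid, with starts 1 base past a multiple of 20 and ends at one. In the list, 12.3% of peaks had both ends on the grid and 51.6% had neither. Their median lengths were 379 bases with both ends on the grid and 132 bases with neither. In Bcl11b the 3 peaks of the 3′ cluster had both ends on the grid and the 2 peaks of the 5′ pair had neither. In Hmga2 the second and the third peak had neither end on the grid, and the first had only its 5′ end on it. Among the 2071 peaks of the list with neither end on the grid, 45.3% had a length that is a multiple of 3. Of the 4 peaks here with neither end on the grid 3 did, those of 366, 87 and 51 bases. These counts hold only for length as the difference of end and start. With both ends counted, these 3 lengths would not be multiples of 3. For peaks with both ends on the grid, counting both ends gives a length that is a multiple of 20. Whether the ends off the grid are the borders of exons was not tested, since no exon table of the same build was used. No reading frame was determined either.

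**Figure D3:**
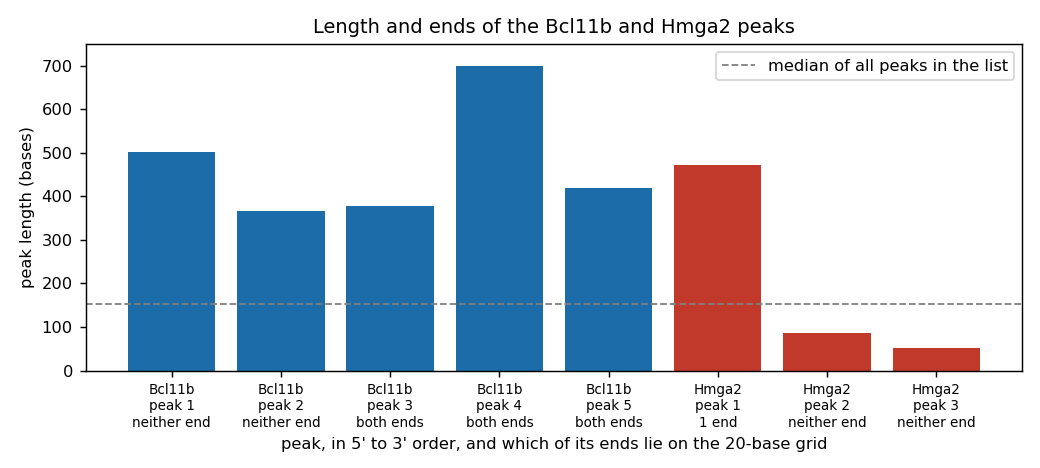
Length in bases of each peak in 5′ to 3′ order for Bcl11b (blue) and Hmga2 (red), with the number of its ends that lie on the 20-base grid written below each bar and the median length of the list, 152 bases, as a dashed line. The short bars are the second and the third Hmga2 peak, and the bars with both ends on the grid are those of the Bcl11b 3′ cluster.

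The surroundings of both loci are described by the nearest other peaks. Every minus-strand peak within 50 kb of a locus is a member by the rule, so no other peak of that strand could remain there. Over the list, the median distance from a peak to the next on the same strand was 42.4 kb, and many peaks had no neighbour within 50 kb. The distances to plus-strand peaks below were not compared with this median. No plus-strand peak lay within 50 kb of either locus (0 peaks). At Bcl11b the nearest other peak on the 5′ side was 654.7 kb away and the nearest on the 3′ side 5538 kb away, both on the plus strand. In the GRCr8 assembly, another build, the protein-coding gene after Bcl11b is Setd3, and those on either side of Hmga2 are Llph and Msrb3. At Hmga2 the nearest other peak on the 5′ side was 333.8 kb away on the plus strand. On the 3′ side, just outside the 50 kb, a minus-strand peak of 30 bases lay 89.3 kb from the third Hmga2 peak, from 65387770 to 65387800. Its score of 5.01 ranked 4007, close to the end of the list, and whether it belongs to the same transcript was not determined. The outermost member inside the limit, the most 5′ peak of Bcl11b, was the one peak of that gene that lay outside the stretch used to find it.

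Each row of the list carries a number from the authors' scan. The numbers run in genome order and reach 1395130 for the 4014 rows, so that numbers skipped between neighbouring peaks were taken as scanned regions that are not in the list. In Bcl11b, 2 numbers were skipped within the 5′ pair and 8 between the pair and the 3′ cluster. Within the cluster none was skipped (0 between each pair of neighbours). In Hmga2, 2 numbers were skipped between the first and the second peak, and 4 between the second and the third. Whether the skipped regions differed between SNI and control was not tested, since the authors also filtered regions on other grounds.

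Peaks of 1 strand less than 50 kb apart were joined into groups, to describe the 2 loci beside other dense places of the list. This gave 1980 groups, of which 1275 were single peaks and 382 held 3 or more. The Hmga2 peaks formed 1 group spanning 13.5 kb. Its median score of 12.7 was the highest of the 382, where the middle value was 7.90, and its lowest score of 10.7 was the second highest. In only 3 of the 382 groups did every peak score at least 10. Hmga2 was chosen partly because a peak in its group has the highest score of the list. The ranks of its group are therefore partly set by that choice, and nothing is read from them. The Bcl11b peaks formed 2 groups, because of the 74.2 kb between them. The 3′ cluster had a median score of 6.99, rank 303 of the 382. It was also compact, since its 1.74 kb compare with a median span of 15.6 kb for the 167 groups of 3 peaks, among which it ranked 159 from the longest span to the shortest. The 5′ pair spanned 14.4 kb, against a median of 5.85 kb for the 323 groups of 2 peaks.

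**Figure D4:**
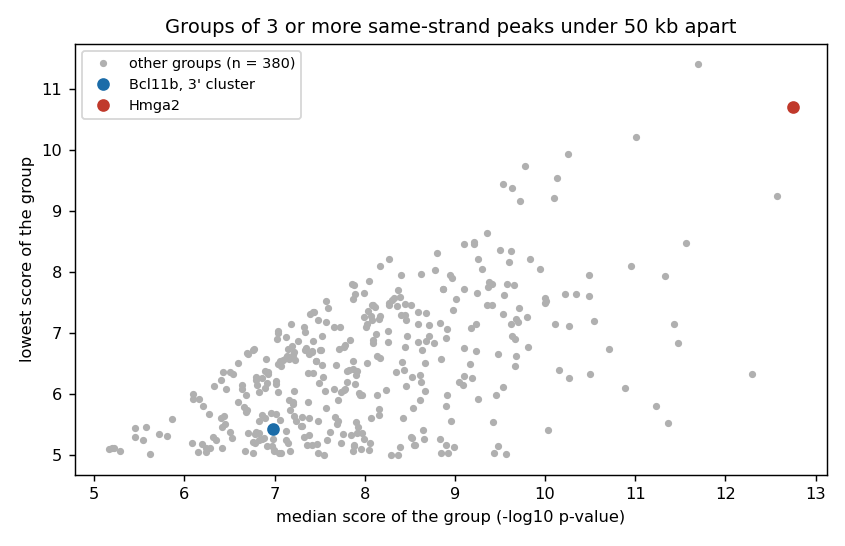
Lowest score (vertical axis) against median score (horizontal axis, both −log10 p-value) of the 382 groups of 3 or more same-strand peaks less than 50 kb apart, with Hmga2 in red and the 3′ cluster of Bcl11b in blue. Hmga2 lies furthest to the right, with a median of 12.7, and its lowest score of 10.7 is the second highest, and the Bcl11b cluster lies among the lower groups. Hmga2 was chosen partly for the highest score of the list, so its place here is a description only.

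The members were set beside other regulators of development and injury whose peaks could be named from the rows of the study's supplement used here. These rows cover part of the peaks marked as increased, so that further peaks of these genes may exist and the number per gene is a lower bound. Bcl11a, the paralogue of Bcl11b and a zinc finger factor of blood and brain development, had 1 peak in them, on the plus strand of chromosome 14 from 108632541 to 108632982. With 441 bases and a score of 7.69 it lay within the range of the Bcl11b peaks in both measures. A peak of Hmg1l1, a relative in the wider group of high-mobility proteins, scored 6.22. Hmgb3 was named for 4 peaks at loci on chromosomes 14 and 17, which cannot all be 1 gene. Their scores were 6.28, 9.03, 10.8 and 10.9, and the counts that follow are given without them and then with them.

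The remaining 15 genes had 20 peaks, with a median score of 7.57 and a range from 5.02 (E2f7, a cell cycle factor) to 13.0 (Runx2, a factor of bone and cartilage). Of these 20 peaks 2 scored above the lowest Hmga2 peak, those of Runx2 and of E2f3 (12.6), a driver of entry into S phase. With Hmgb3 included, 4 of 24 peaks did. The best peak of 5 genes (6 with Hmgb3) scored above the best peak of Bcl11b. The 5 were Runx2, E2f3, Jun (10.1), a factor of the Schwann cell injury response, Ets1 (9.83) and Snai2 (9.69). None of the 15 had more than 2 peaks in these rows. The 5 peaks of Bcl11b and the 3 of Hmga2 were instead counted by position within 50 kb. The rows name none of the Hmga2 peaks, nor the most 5′ Bcl11b peak. For this reason, and since the rows for the 15 genes are incomplete, the numbers were not compared. Runx2 showed that peaks of 1 gene can differ widely, since its 2 peaks scored 7.63 and 13.0. These peaks span 88932 bases, beyond the 50 kb limit used for Hmga2, so the spreads of the 2 genes were not compared.

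**Figure D5:**
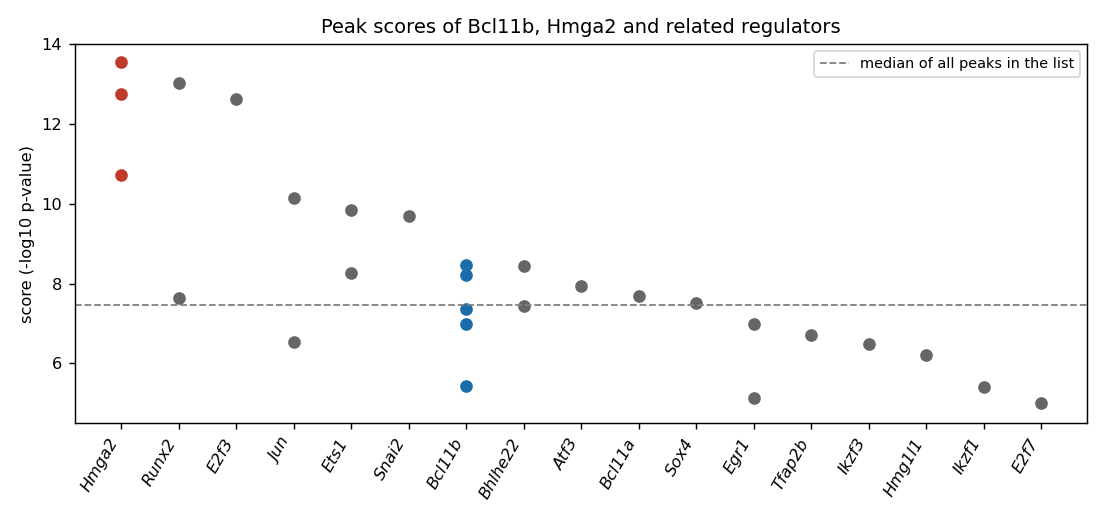
Score (−log10 p-value) of every peak found for Bcl11b (blue), Hmga2 (red) and 15 related regulators (grey), ordered by the best score of each gene, with the median of all 4014 peaks as a dashed line. The 3 Hmga2 peaks within the 50 kb limit are all above 10, Runx2 and E2f3 each have a peak at similar height, and Bcl11b spans from 5.44 to 8.47. A minus-strand peak 89.3 kb from Hmga2, with a score of 5.01, is not shown, and its transcript was not determined. The Bcl11b and Hmga2 peaks were found by position, and the others by name in the supplement rows.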

How the data were processed

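MeRIP-seq was performed on 3 control and 3 SNI samples of rat sciatic nerve, with an IP and an input library each. Per the labels, reads were trimmed with Cutadapt (1.9.3) and aligned to rn5 with HISAT2 (2.0.4). Per the methods of the study, peaks were called with MACS and groups compared with diffReps, whose versions are not given in the sources used here. The authors deposited the resulting list with a −log10 p-value as the score of each peak and no values per library, so the reads behind each score cannot be given and no test was run. The list was not filtered.

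Peaks were found by position, ranked by score over the list and compared with shares of all peaks. Same-strand peaks less than 50 kb apart were grouped. Related regulators were matched to the list by identical chromosome, start and end, and their scores come from the list. All minus-strand peaks within 50 kb of both loci are described, and of the related genes Bcl11a and those with the highest and lowest scores are named. Hmg1l1, Hmgb3 (which was also left out of some counts), E2f3, Jun, Ets1 and Snai2 were added after their values were seen. Members and lists were chosen with earlier results of these data known. Alternatives were other windows, a score of at least 8, a length of at least 100 bases, merging below 100 bases and both strands. Grouping, merging and the percentage of peaks below a value were tested on simulated data, and the ranks were not. Fold changes and directions of the study were not used as values. The scripts ran in Python 3.11.15 with pandas 2.3.3, scipy 1.17.1, numpy 2.4.6 and, for the plots, matplotlib 3.10.9.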

Additional observations from a re-analysis of the deposited data

How the results depend on the processing

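Of 54 values under an alternative, 28 stayed the same (for a number of peaks, within 1.5 times; for a share, within its exact 95% Clopper-Pearson interval, which covers counting error only; for a median score or a summed length, which have no error here, only if identical), 26 moved and 0 reversed. A window of 10 kb lost the most 5′ Bcl11b peak (median score 7.18, summed length 1863 bases) and left 1 Hmga2 peak (score 10.7, 51 bases). A window of 100 kb added the distant weak peak to Hmga2 (median score 11.7, 639 bases). A score of at least 8 left 2 Bcl11b peaks (median 8.35, 868 bases), those of the 5′ pair. A length of at least 100 bases left 1 Hmga2 peak of 471 bases and so removed the peak with the highest score. Merging joined the cluster peaks 61 bases apart (median score 7.79, 2426 bases). No paired analysis was possible because the list has no values per library, and for the same reason no replicate could be left out.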
